A study of Homo sapiens with 16 samples.

Results

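The C-type lectin receptor genes examined were CLEC12A, CLEC12B, CLEC7A, CLEC4A, CLEC4E, CLEC2B, CLEC2D, CLEC1A, CLEC9A and OLR1, which lie in the natural killer gene complex on the short arm of chromosome 12. They were chosen by name, and 9 of the 10 were found among the 22445 genes of the deposited table by their Ensembl gene IDs. All 9 passed the filter on low values, and CLEC9A was not analysed here. Expression was measured by RNA sequencing in Molm14, an established acute myeloid leukaemia cell line that carries a KMT2A rearrangement. The cells received DMSO as vehicle, EPZ5676 (0.16 uM), which inhibits DOT1L (group iDOT1L), GSK126 (0.3 uM), which inhibits EZH2 (group iEZH2), or both compounds at those doses (Combo). Treatment lasted 7 days, medium and compound were replaced on day 4, and 4 libraries were made per group. All groups came from the same line, and DOT1L and EZH2 are histone methyltransferases. The labels do not say whether the 4 libraries of a group came from separate cultures, so the spread behind every p-value is that between these samples and may be technical.

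C-type lectin receptors are surface proteins of myeloid and lymphoid cells whose extracellular domain binds sugars, lipids or protein ligands. Some carry an inhibitory tyrosine motif (ITIM) that recruits phosphatases such as PTPN6, as in CLEC12A, CLEC12B and CLEC4A. Others activate the kinase SYK and the adaptor CARD9, either through their own tail, as in CLEC7A (dectin-1), or through the FCER1G adaptor chain, as in CLEC4E (Mincle). CLEC2B and CLEC2D act as ligands for receptors of natural killer cells, and OLR1 takes up oxidised low-density lipoprotein. CLEC12A is a surface antigen of myeloid cells and of many acute myeloid leukaemias.

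RefSeq promoter windows on GRCh38.p14, from 250 bases before to 50 bases after the start site, were matched for 4 of the 10 genes and for CLEC1B, a receptor gene that lies between CLEC12A and CLEC12B. The first 3 windows below are shown because CLEC12A, CLEC12B and CLEC1B are the adjacent genes that rose, and the CLEC2D window because CLEC2D was the most abundant of the set. They are chr12:9971159-9971458 on the plus strand for CLEC12A, chr12:10010377-10010676 on the plus strand for CLEC12B, chr12:9999072-9999371 on the minus strand for CLEC1B and chr12:9669463-9669762 on the plus strand for CLEC2D. Capitals mark matches on either strand to GAGGAAG (letters like those bound by PU.1), TGTGGT (like those bound by RUNX factors) and TTGCNNAA (like those bound by C/EBP factors).
CLEC12A: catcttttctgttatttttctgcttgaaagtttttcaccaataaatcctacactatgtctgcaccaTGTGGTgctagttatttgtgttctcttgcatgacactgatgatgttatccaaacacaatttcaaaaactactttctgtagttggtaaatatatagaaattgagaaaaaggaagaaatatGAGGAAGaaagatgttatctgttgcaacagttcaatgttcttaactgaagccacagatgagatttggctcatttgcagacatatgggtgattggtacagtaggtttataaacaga
CLEC12B: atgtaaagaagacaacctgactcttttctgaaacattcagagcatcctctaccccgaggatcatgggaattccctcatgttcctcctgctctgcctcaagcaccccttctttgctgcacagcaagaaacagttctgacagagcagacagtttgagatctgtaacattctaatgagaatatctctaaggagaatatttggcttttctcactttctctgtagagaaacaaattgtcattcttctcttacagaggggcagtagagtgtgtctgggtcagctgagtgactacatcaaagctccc
CLEC1B: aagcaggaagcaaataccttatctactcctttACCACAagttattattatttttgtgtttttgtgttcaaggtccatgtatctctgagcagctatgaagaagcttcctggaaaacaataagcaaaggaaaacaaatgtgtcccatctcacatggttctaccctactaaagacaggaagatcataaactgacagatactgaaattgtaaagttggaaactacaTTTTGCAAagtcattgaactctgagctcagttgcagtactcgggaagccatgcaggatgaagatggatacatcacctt
CLEC2D: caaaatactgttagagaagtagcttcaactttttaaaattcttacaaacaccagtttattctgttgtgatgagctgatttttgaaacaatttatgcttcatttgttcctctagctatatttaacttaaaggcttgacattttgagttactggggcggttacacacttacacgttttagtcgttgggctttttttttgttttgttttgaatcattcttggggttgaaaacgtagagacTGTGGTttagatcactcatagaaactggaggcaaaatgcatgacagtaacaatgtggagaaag

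The CLEC12A window held GAGGAAG with its first base at -65 and TGTGGT at -184 from the start site of the window. For CLEC12A, CLEC1B and CLEC2D this RefSeq start site lies inside the gene span given below, not at its end. The CLEC12B window held none of these motifs, so the pair of neighbouring genes did not share a match. The CLEC1B window held TGTGGT at -218 and TTGCNNAA at -28, both on the opposite strand, and the CLEC2D window held TGTGGT at -13. Among 35116 RefSeq promoter windows of the same length, 13.6% held GAGGAAG, 13.1% held TGTGGT and 10.5% held TTGCNNAA, and none of the 3 motifs overlapped another in these windows. The windows of CLEC12A, CLEC12B, CLEC1B and CLEC2D held 0, 1, 1 and 4 CpG dinucleotides, against a median of 14 over all windows. The matched window of CLEC4E, a gene that was not called, is not shown. It held 2 CpG dinucleotides and TTGCNNAA at -107 on the opposite strand, so neither trait was particular to the genes that rose. The motifs were chosen after the CLEC12A window had been read, and a match describes letters only.

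Estimated depth was 20.71 to 27.37 M reads per library. All 7 myeloid blast markers of the line were present, with summed levels of 21730 to 28900 normalised counts. Summed T cell, endothelial and erythroid markers reached at most 61.95, 11.73 and 6.251. NCAM1, the CD56 gene, averaged 3439 and the B cell factor PAX5 826.6. In bulk RNA, fewer cells of a type and less RNA per cell cannot be told apart.

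With iDOT1L, 2 of the 9 genes rose against DMSO, CLEC12A and CLEC12B, and none fell. Over all 22331 genes tested, 3.08% rose and 3.17% fell. The test was limma-trend on log2 of the normalised count plus 1, with an adjusted p (Benjamini-Hochberg over all genes) under 0.05 as the threshold. With Combo the same 2 genes rose and none fell, where 7.22% of all genes rose and 8.8% fell. With iEZH2 none of the 9 was called, where 1.3% of all genes rose and 2.05% fell, and CLEC12A and CLEC12B were the 2 members with an unadjusted p under 0.05, beside 3511 of all 22331 genes. The median log2 difference over the 9 genes was 0.51 with iDOT1L, 0.19 with iEZH2 and 0.83 with Combo, beside 0.01, 0.02 and 0.03 over all genes tested.

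**Figure D1:**
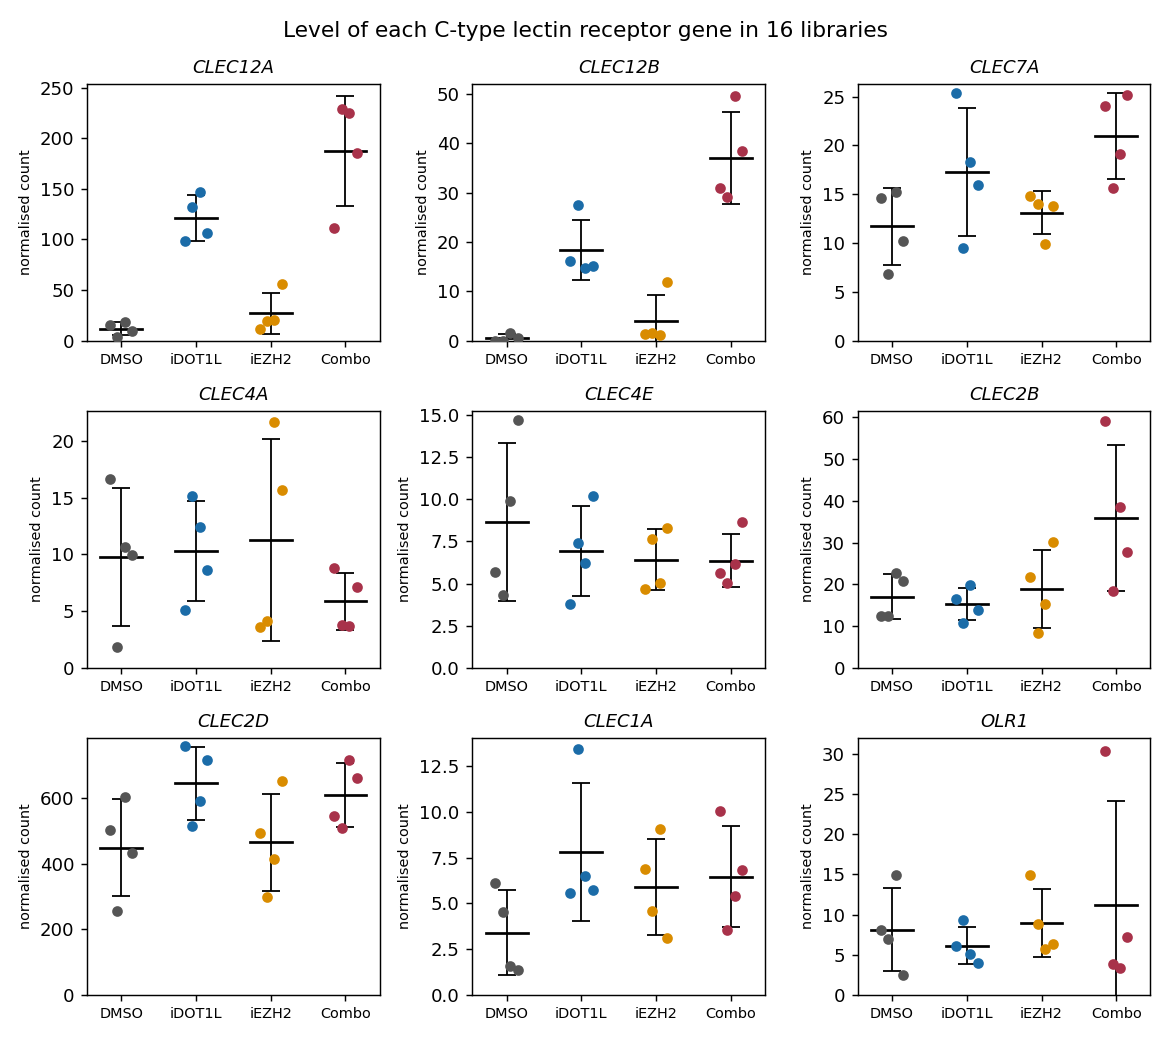
Normalised count (vertical axis, linear, starting at 0) of the 9 genes in each of 16 libraries, with points for libraries, long bars for group means and short bars for the SD over 4 libraries (cut off at 0). CLEC12A and CLEC12B are high in all iDOT1L and Combo libraries, with 1 iEZH2 library between, while the groups overlap for most other genes.

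CLEC12A (ENSG00000172322, chr12:9951316-9995694 on GRCh38, plus strand) encodes an inhibitory receptor of myeloid cells. Its normalised counts were 15.1, 3.95, 18.7 and 9.77 in DMSO, a mean of 11.9 ± 6.42 (SD, n = 4). They were 98.8, 132, 147 and 106 with iDOT1L, a mean of 121 ± 22.5 (SD, n = 4). Every iDOT1L library was above every DMSO library. With iEZH2 they were 11.5, 19.1, 20.4 and 56.1 (26.8 ± 19.9, SD, n = 4), and 3 of these 4 libraries lay near the DMSO range while replicate 4 lay between DMSO and iDOT1L. With Combo they were 111, 228, 225 and 185 (187 ± 54.7, SD, n = 4), above all DMSO and iEZH2 libraries and overlapping iDOT1L.

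The ratio of CLEC12A means to DMSO was 10.2 with iDOT1L, 2.25 with iEZH2 and 15.8 with Combo. In limma the log2 difference from DMSO was 3.40 ± 0.43 (SE) with iDOT1L, with an adjusted p of 6.36e-05. With Combo it was 3.99 ± 0.43 with an adjusted p of 4.28e-06. The iEZH2 difference of 1.04 ± 0.43 did not pass (adjusted p = 0.224), and was 0.64 without DMSO replicate 2 (adjusted p = 0.441). Over single left-out libraries it ranged from 0.62 to 1.35, with adjusted p from 0.0825 to 0.513. CLEC12A was also higher in Combo than in iEZH2, by 2.95 (adjusted p = 0.000432), and higher in iDOT1L than in iEZH2, by 2.36 (adjusted p = 0.00179). Combo and iDOT1L differed by 0.59 ± 0.43, which did not pass (adjusted p = 0.528).

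CLEC12B (ENSG00000256660, chr12:10010627-10018619, plus strand) encodes another ITIM receptor, and its annotated start lies 14.9 kb beyond the end of CLEC12A. It was nearly silent in DMSO, with normalised counts of 0, 0, 1.61 and 0.477 (0.521 ± 0.758, SD, n = 4). With iDOT1L the counts were 16.1, 27.4, 14.8 and 15.1 (18.4 ± 6.05, SD, n = 4), so no library of the 2 groups overlapped. With iEZH2 they were 1.36, 1.59, 1.10 and 11.9 (3.99 ± 5.29, SD, n = 4), and again replicate 4 was the high one. With Combo they were 30.9, 29.1, 49.5 and 38.3 (37.0 ± 9.28, SD, n = 4), above all 12 other libraries.

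The DMSO level of CLEC12B rested on an estimated 2 reads (1.91 before rounding) over 4 libraries, so its fold is poorly bounded. The ratio of reads per depth to DMSO was 34.3 for iDOT1L (95% exact interval 9.18 to 288), from 77 estimated reads. It was 69.9 for Combo (19.0 to 583), from 150 reads. It was 7.49 for iEZH2 (1.78 to 66.8), from 17 reads. These intervals cover counting error only. On the log2 scale with 1 added, CLEC12B rose by 3.74 ± 0.51 with iDOT1L (limma, adjusted p = 0.000111) and by 4.73 ± 0.51 with Combo (adjusted p = 3.19e-06). The iEZH2 difference was 1.36 ± 0.51 (adjusted p = 0.173).

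CLEC12B was higher in Combo than in iEZH2 by 3.37 ± 0.51 (adjusted p = 0.000489) and higher in iDOT1L than in iEZH2 by 2.38 ± 0.51 (adjusted p = 0.00559). These and the CLEC12A differences made 2 of 9 genes higher in each of the comparisons, where 2.08% and 3.88% of all genes were higher (1.72% and 3.06% were lower). Libraries of CLEC12A and CLEC12B did not overlap between iDOT1L and DMSO or between iDOT1L and iEZH2, which held with iDOT1L higher for 6.05% and 6.25% of all genes. They and CLEC7A were higher in Combo than in iEZH2 without overlap, as 4.56% of all genes were, and none of the 9 was higher in iEZH2 than in DMSO without overlap, as 3.67% were. Between Combo and iDOT1L none of the 9 genes was called, where 1.11% of all genes rose and 1.48% fell, and 1 of the 9 had an unadjusted p under 0.05, beside 3714 of all 22331 genes. The lowest Combo library of CLEC12B stood above the highest iDOT1L library, which held for 5.08% of all genes. Its difference of 0.99 ± 0.51 did not pass (adjusted p = 0.339).

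The interaction compares the Combo effect with the sum of the single effects on the log2 scale. It was -0.46 ± 0.60 for CLEC12A and -0.37 ± 0.72 for CLEC12B, and both had an adjusted p of 1. No gene among 22331 (0%) passed for the interaction in limma, 848 had an unadjusted p under 0.05, and none of the 9 genes was among these. The sign of both estimates turned with another scale: on the deposited log2 values they were 0.09 and 0.08.

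**Figure D2:**
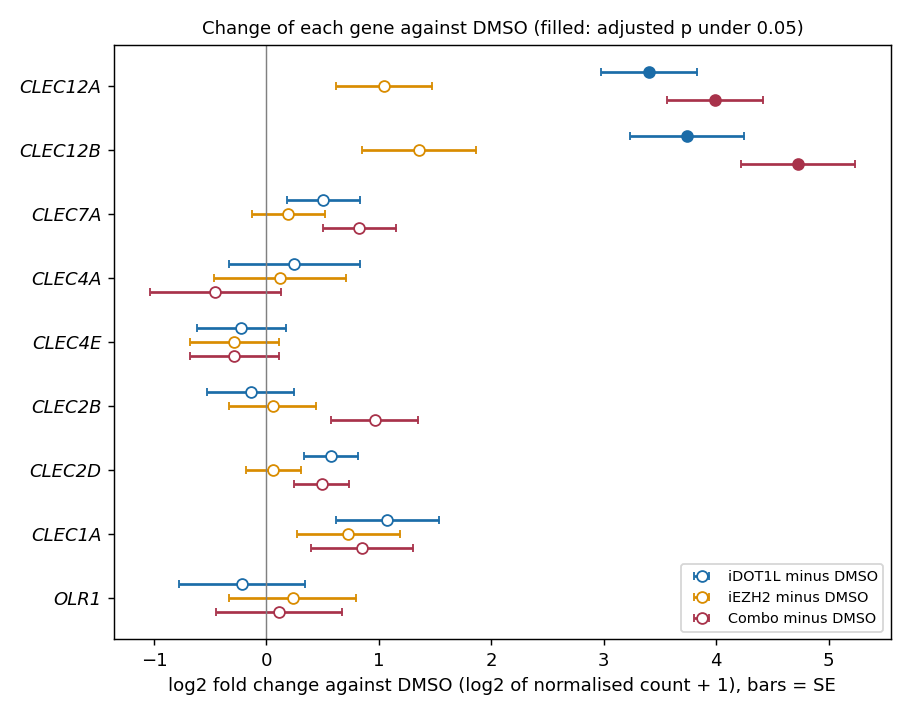
Log2 difference from DMSO (horizontal axis) of the 9 genes with iDOT1L, iEZH2 and Combo, with bars for the SE from limma and filled points for adjusted p under 0.05. The filled points are CLEC12A (3.40 and 3.99) and CLEC12B (3.74 and 4.73) with iDOT1L and Combo.

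Replicate 4 of iEZH2 stood apart from the other iEZH2 libraries in more than these 2 genes. Over 685 genes that rose with iDOT1L, the 9 genes left aside, its median log2 level was 0.51 above the DMSO mean, against 0.16, 0.06 and 0.08 in the other 3 and 0.78 to 0.86 in the iDOT1L libraries, whose distance from DMSO is set by the choice of these genes. Without it the iEZH2 mean was 17.0 ± 4.81 for CLEC12A and 1.35 ± 0.244 for CLEC12B (SD, n = 3). The iEZH2 difference from DMSO was then 0.62 for CLEC12A (limma, adjusted p = 0.513) and 0.74 for CLEC12B (adjusted p = 0.443). Without it the iDOT1L minus iEZH2 difference was 2.78 for CLEC12A (adjusted p = 0.000112) and 3.00 for CLEC12B (adjusted p = 0.000105). Combo minus iEZH2 was 3.37 for CLEC12A (adjusted p = 1.63e-05) and 3.99 for CLEC12B (adjusted p = 4.98e-06).

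The summed level of monocyte markers was higher in the libraries with high CLEC12A and CLEC12B. Of the 12 markers on the list, however, 7 were not called against DMSO with iDOT1L and 6 with Combo. All 12 markers on the list were in the table, none at 0 throughout, and their summed level was 5228 to 6093 normalised counts in DMSO and 12720 to 17300 with iDOT1L. It was 5420 to 10360 with iEZH2, the highest again in replicate 4, and 16620 to 27220 with Combo. Against DMSO 4 markers rose and 1 fell with iDOT1L, 2 rose and 1 fell with iEZH2, and 5 rose and 1 fell with Combo, ITGAM being the one that fell with iDOT1L and Combo. Among all genes tested, 3.08% rose and 3.17% fell with iDOT1L, and 7.22% rose and 8.8% fell with Combo. The shares with iEZH2 were 1.3% and 2.05%. The lysozyme gene LYZ, whose transcripts share 39.3% of their 31-base words with other genes, was the most abundant marker and made up most of the rise of the sum, with means of 2463 in DMSO, 9051 with iDOT1L, 4274 with iEZH2 and 15960 with Combo. The part of this shift in the CLEC12A and CLEC12B differences was not tested.

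**Figure D3:**
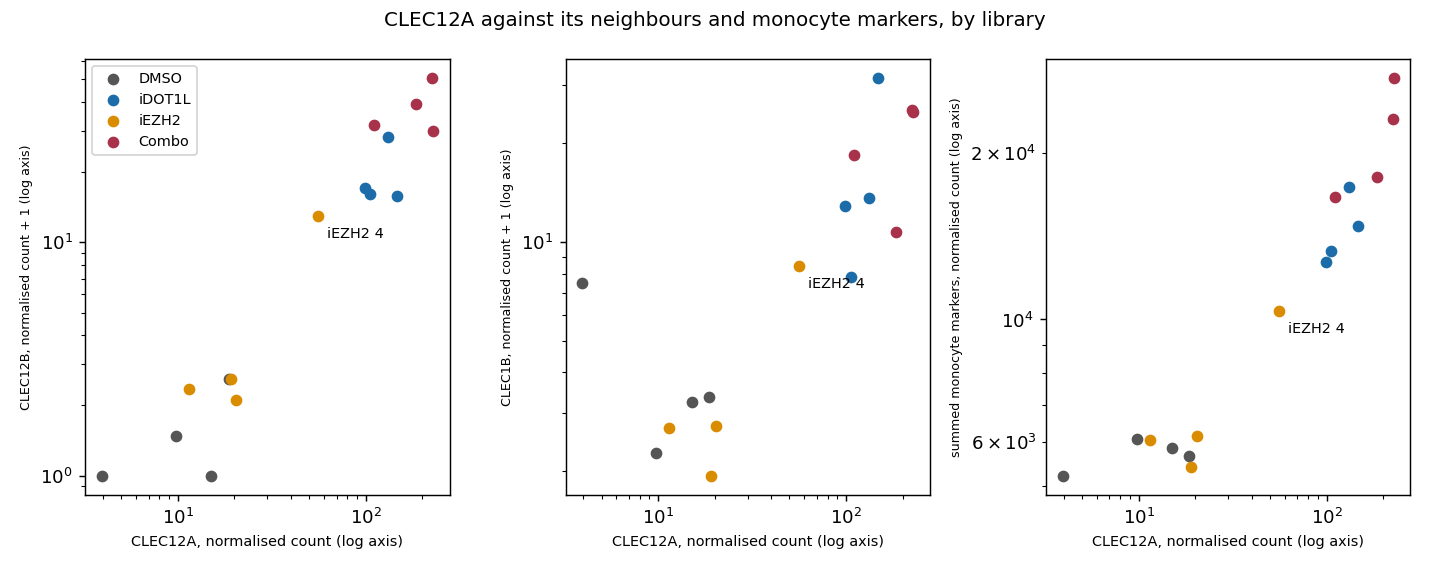
CLEC12A normalised count (horizontal log axis) against CLEC12B plus 1, CLEC1B plus 1 and the summed monocyte markers (vertical log axes) in the 16 libraries, 1 point each. iEZH2 replicate 4 (CLEC12A 56.1, CLEC12B 11.9, marker sum 10360) lies between the other iEZH2 libraries and the iDOT1L libraries in the panels for CLEC12B and the markers.

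CLEC1B, the platelet receptor for podoplanin, is not among the 10 genes but lies between CLEC12A and CLEC12B on the opposite strand (ENSG00000165682, chr12:9985642-10013424). Its span overlaps CLEC12A by 10053 bases and CLEC12B by 2798 bases. Normalised counts were 2.25, 6.48, 2.36 and 1.26 in DMSO and 11.9, 12.6, 30.5 and 6.79 with iDOT1L. They were 1.70, 0.939, 1.74 and 7.42 with iEZH2 and 17.3, 23.9, 24.3 and 9.73 with Combo. The iDOT1L and Combo libraries all stood above the DMSO libraries. CLEC1B rose by 1.96 ± 0.52 with iDOT1L (limma, adjusted p = 0.0275) and by 2.35 ± 0.52 with Combo (adjusted p = 0.00382), and was -0.15 with iEZH2 (adjusted p = 0.93).

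The iDOT1L call of CLEC1B was lost when DMSO replicate 1, 3 or 4 or iDOT1L replicate 2 or 3 was left out, with adjusted p up to 0.12. CLEC1B was also higher in Combo than in iEZH2, by 2.50 (limma, adjusted p = 0.00757). Its difference of 2.12 between iDOT1L and iEZH2 (adjusted p = 0.016) was lost without iDOT1L replicate 3, iEZH2 replicate 2 or iEZH2 replicate 3. Whether counting used strand is not given in the sources used here, so reads from sequence that these genes share on opposite strands cannot be told apart. Counted on both strands, 2.18% of the 31-base words in CLEC1B transcripts occur in CLEC12A and 2.42% of those in CLEC12A occur in CLEC1B, so most transcript sequence of the pair is distinct.

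Among the receptors that signal through SYK, CLEC7A (ENSG00000172243, chr12:10116777-10130258, minus strand), the beta-glucan receptor of antifungal defence, had counts of 14.6, 6.78, 15.2 and 10.2 in DMSO. With iDOT1L they were 25.4, 9.45, 18.3 and 15.9, with iEZH2 14.8, 13.9, 9.85 and 13.8, and with Combo 24.02, 15.6, 19.2 and 25.1. The Combo libraries all stood above the DMSO libraries, while iDOT1L overlapped DMSO. CLEC7A differed from DMSO by 0.51 ± 0.32 with iDOT1L (limma, adjusted p = 0.452), 0.19 ± 0.32 with iEZH2 (adjusted p = 0.835) and 0.83 ± 0.32 with Combo (adjusted p = 0.0933). With the replicate number as a block in limma the Combo value passed (adjusted p = 0.047), in a fit that called 5 of the 9 genes and 24.6% of all genes in that comparison. Counting CLEC7A, 3 of the 9 genes were higher in Combo than in DMSO without overlap, which held for 9.62% of all genes.

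CLEC4E (ENSG00000166523, chr12:8533305-8540963, minus strand), the receptor for mycobacterial cord factor, had 5.66, 4.33, 9.89 and 14.7 normalised counts in DMSO and 3.77, 7.44, 6.24 and 10.2 with iDOT1L. With iEZH2 it had 4.68, 7.65, 5.03 and 8.30, and with Combo 5.61, 5.04, 6.17 and 8.65, all within the DMSO range. Its log2 differences from DMSO were -0.22 with iDOT1L, -0.28 with iEZH2 and -0.28 with Combo, each with an SE of 0.39 and an adjusted p of at least 0.692 in limma.

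CLEC4A (ENSG00000111729, chr12:8123632-8138607, plus strand) encodes an ITIM receptor of dendritic cells and monocytes, like CLEC12A in its tail motif but not in its values. Its counts were 16.7, 1.82, 10.7 and 9.93 in DMSO and 5.07, 15.1, 12.5 and 8.60 with iDOT1L. They were 3.58, 4.12, 21.7 and 15.7 with iEZH2 and 8.78, 3.81, 3.73 and 7.13 with Combo. The groups overlapped throughout. The log2 differences were 0.25, 0.12 and -0.45 with iDOT1L, iEZH2 and Combo, each with an SE of 0.58 and an adjusted p of at least 0.665 in limma. The level of CLEC4A is uncertain, because 63.0% of its 31-base words also occur in the annotated transcript AC006511.5.

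The ligand gene CLEC2D (ENSG00000069493, chr12:9664969-9699555, plus strand), which encodes the ligand of KLRB1, was the most abundant. Its counts were 504, 256, 606 and 434 in DMSO and 759, 516, 593 and 717 with iDOT1L. They were 494, 300, 416 and 652 with iEZH2 and 547, 510, 718 and 664 with Combo. iDOT1L and Combo overlapped the upper part of the DMSO range. The differences from DMSO were 0.57 ± 0.24 with iDOT1L (limma, adjusted p = 0.214), 0.06 ± 0.24 with iEZH2 (adjusted p = 0.94) and 0.49 ± 0.24 with Combo (adjusted p = 0.195). Without DMSO replicate 2, the lowest CLEC2D library, they were 0.33 with iDOT1L (adjusted p = 0.492) and 0.24 with Combo (adjusted p = 0.503). Over single left-out libraries the iDOT1L difference ranged from 0.33 to 0.74 (limma, adjusted p at least 0.109). The Combo difference ranged from 0.24 to 0.66 (adjusted p at least 0.0899).

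With the block, CLEC2D was called against DMSO with iDOT1L (limma, adjusted p = 0.0278), where 12.2% of all genes were called, and with Combo (adjusted p = 0.0352). It was also called in iDOT1L against iEZH2, where the difference was 0.51 (adjusted p = 0.261 without the block and 0.0447 with it, where 14.3% of all genes were called). CLEC2D shares 15.9% of its 31-base words with other genes, most of them with the processed pseudogene AC007068.1 inside its span.

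CLEC2B (ENSG00000110852, chr12:9852984-9870136, minus strand), the ligand gene for KLRF1, lies 81.2 kb from the start of the CLEC12A gene span. It had 12.3, 12.5, 22.6 and 20.8 normalised counts in DMSO and 16.5, 10.7, 19.8 and 13.8 with iDOT1L. With iEZH2 it had 21.7, 8.40, 15.3 and 30.1, and with Combo 59.1, 18.4, 38.5 and 27.8. Of the Combo libraries 3 stood above all DMSO libraries and replicate 2 lay inside their range. The Combo difference was 0.96 ± 0.39 from DMSO (limma, adjusted p = 0.101) and 1.10 ± 0.39 from iDOT1L (adjusted p = 0.146). With the block these became adjusted p = 0.0356 and 0.0369, and the latter comparison then had 10% of all genes called. The labels do not say what the replicate number stands for. Without Combo replicate 2, the lowest Combo library, the limma adjusted p against DMSO was 0.0397. No other left-out library gave a call. Over single left-out libraries the Combo difference from DMSO ranged from 0.69 to 1.23 and its limma adjusted p from 0.0397 to 0.282. The differences with iDOT1L and iEZH2 were -0.14 and 0.06, each with an adjusted p of at least 0.907.

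CLEC1A (ENSG00000150048, chr12:10069554-10111627, minus strand), the receptor for fungal melanin, has its nearer end 50.9 kb beyond that of CLEC12B. Its counts were 6.09, 4.55, 1.56 and 1.38 in DMSO and 5.54, 13.4, 6.48 and 5.72 with iDOT1L. With iEZH2 they were 6.87, 4.59, 9.09 and 3.08 and with Combo 10.1, 3.56, 5.43 and 6.80, both overlapping DMSO. The log2 differences were 1.08, 0.73 and 0.85 with iDOT1L, iEZH2 and Combo, each with an SE of 0.46 and an adjusted p of at least 0.209 in limma. OLR1 (ENSG00000173391, chr12:10158301-10172138, minus strand) encodes the scavenger receptor LOX-1. It had 8.04, 6.98, 14.9 and 2.52 normalised counts in DMSO and 6.04, 9.39, 5.14 and 3.94 with iDOT1L. With iEZH2 it had 14.98, 8.87, 5.72 and 6.29, and with Combo 30.4, 3.88, 3.39 and 7.22, where replicate 1 was far above the others. Its log2 differences were -0.22, 0.23 and 0.11 with an SE of 0.56, and adjusted p was at least 0.895.

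Per kilobase of median GENCODE transcript length, the DMSO level of CLEC2D was 584 ± 191 normalised counts (SD, n = 4), above every other gene of the set in every library. CLEC2B (18.4), CLEC4A (15.9), CLEC4E (13.4), CLEC7A (11.7), OLR1 (11.1) and CLEC12A (8.32) followed, and each overlapped the next in the order over its 4 libraries. CLEC1A (2.91) and CLEC12B (0.436) were the lowest on this scale, and their ranges also overlapped. By these means per kilobase CLEC12A and CLEC12B were among the 3 lowest of the 9 genes in DMSO, but CLEC12A overlapped OLR1 and CLEC7A.

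The 9 genes span a 2.05 Mb region in which 30 other genes were tested. Of these 30, 2 rose with iDOT1L (CLEC1B and CLECL1), 2 with iEZH2 (RIMKLB and PHC1) and 4 with Combo (CLEC1B, AC007068.1, RIMKLB and PHC1), and CD69 fell with Combo. CLECL1, a lectin-like gene of B and dendritic cells, rose by 0.55 ± 0.15 with iDOT1L (limma, adjusted p = 0.0375), a call lost without DMSO replicate 1, 2 or 3 or iDOT1L replicate 1, 3 or 4 (adjusted p up to 0.107). RIMKLB rose by 1.67 ± 0.42 with iEZH2 (adjusted p = 0.0313) and by 1.85 ± 0.42 with Combo (adjusted p = 0.00442), and its iEZH2 call was lost without DMSO replicate 1, 2 or 3 or iEZH2 replicate 3 or 4 (adjusted p up to 0.113). CD69, an activation marker, was 25.8 ± 11.5 in DMSO and 3.78 ± 4.26 with Combo (SD, n = 4), a log2 difference of -2.81 (adjusted p = 0.0171), lost without DMSO replicate 1 (0.0545) or Combo replicate 3 (0.0659).

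Other genes hold 60.8% of the 31-base words of PHC1, so its level is uncertain, and every word of AC007068.1 occurs in CLEC2D. The median log2 difference over the 30 genes was 0.16 with iDOT1L, 0.41 with iEZH2 and 0.27 with Combo. The genes called with iDOT1L other than CLECL1 were thus the adjoining CLEC12A, CLEC1B and CLEC12B.

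**Figure D4:**
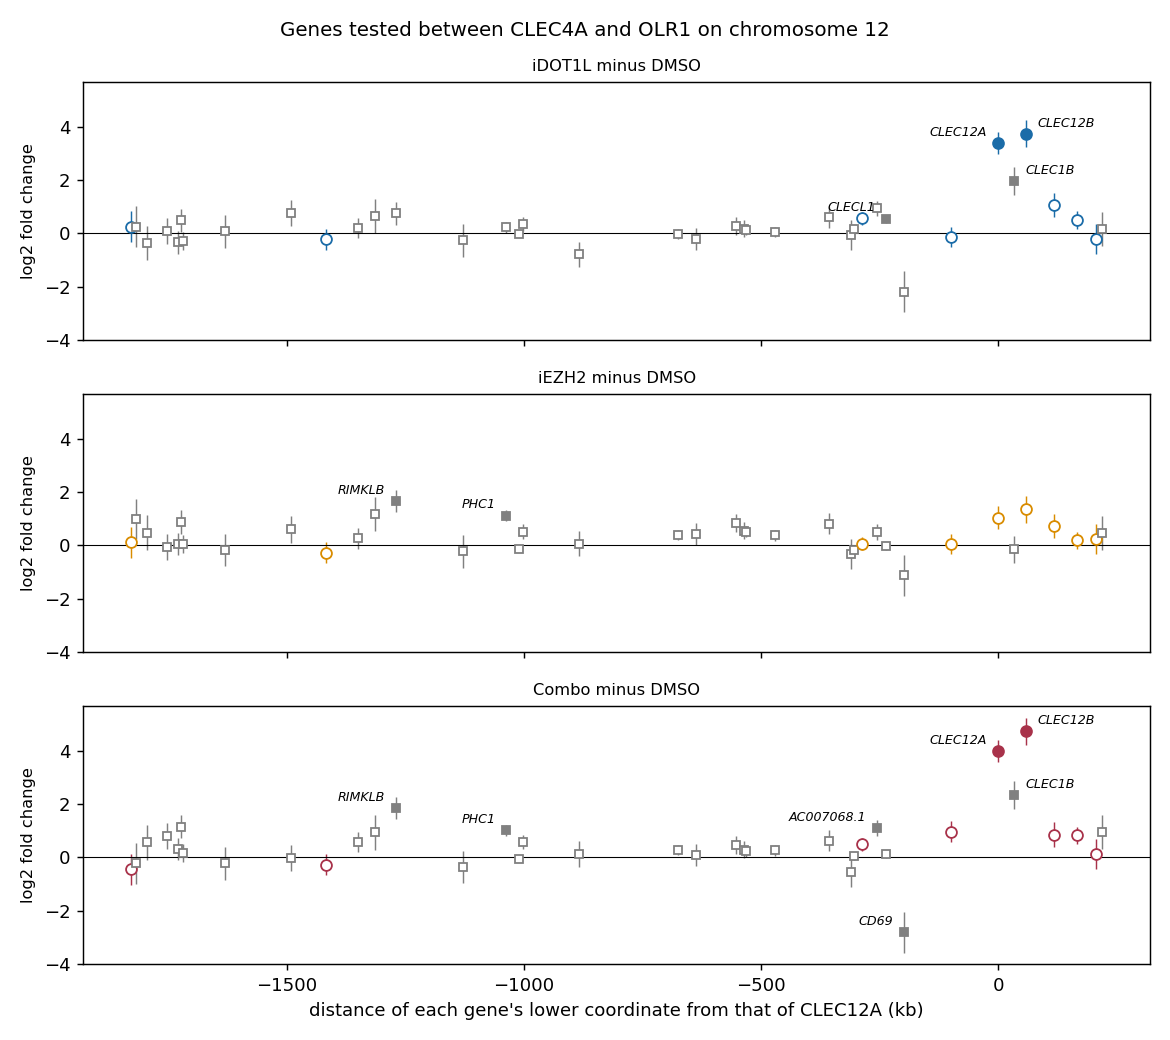
Log2 difference from DMSO (vertical axis, bars are SE) of the 39 genes tested in the region, by distance of each gene's lower coordinate from that of CLEC12A in kb. Circles are the 9 genes, squares the 30 others, and filled symbols have an adjusted p under 0.05. CLEC12A, CLEC1B and CLEC12B stand side by side as the highest points with iDOT1L and Combo.

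Of 17 other receptor genes listed for the complex, 11 were in the table. CLEC1B and CLECL1 rose with iDOT1L, none was called with iEZH2, and with Combo CLEC1B rose and CD69 fell. Of 20 C-type lectin genes outside the complex, 1 rose and 2 fell with iDOT1L, none was called with iEZH2, and 2 rose and 2 fell with Combo. Beside both lists, 3.08% of all genes tested rose and 3.17% fell with iDOT1L, and 7.22% rose and 8.8% fell with Combo. With iEZH2 1.3% rose and 2.05% fell. CD209, the dendritic cell receptor DC-SIGN, fell by 1.69 ± 0.33 on the log2 scale with iDOT1L (limma, adjusted p = 0.00302). THBD, thrombomodulin, rose by 0.45 ± 0.10 (adjusted p = 0.0114).

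Of the 24 genes listed for signalling below these receptors, 1 rose and 2 fell with iDOT1L, 4 fell with iEZH2, and 1 rose and 8 fell with Combo. Of all genes tested, 3.08% rose and 3.17% fell with iDOT1L, 2.05% fell with iEZH2, and 7.22% rose and 8.8% fell with Combo. The list's median log2 difference with Combo was -0.26, beside 0.03 over all genes. INPP5D (SHIP1), an inositol phosphatase that restrains signalling in blood cells, fell by 0.64 ± 0.12 with iDOT1L (limma, adjusted p = 0.00191), by 0.80 with iEZH2 (adjusted p = 0.00075) and by 1.18 with Combo (adjusted p = 1.35e-06). PTPN6 (SHP-1), a phosphatase recruited by inhibitory receptors, fell by 0.40 ± 0.09 with iEZH2 (adjusted p = 0.0132) and by 0.40 with Combo (adjusted p = 0.00341). TYROBP, an adaptor of activating receptors, fell by 0.90 ± 0.20 with iEZH2 (adjusted p = 0.0162). The iEZH2 calls of both genes were lost without DMSO replicate 4 (adjusted p = 0.0626 for each), and that of TYROBP also without DMSO replicate 1 (adjusted p = 0.0561) or 3 (adjusted p = 0.0576). PRKCD, a kinase between SYK and CARD9, rose by 0.35 ± 0.08 with iDOT1L (adjusted p = 0.00756), and NFKB1 fell by 0.42 ± 0.11 (adjusted p = 0.024). With Combo, SRC fell by 1.22 ± 0.21 (limma, adjusted p = 0.000491), PLCG2 by 0.40 ± 0.09 (adjusted p = 0.00257) and NFKB2 by 0.91 ± 0.20 (adjusted p = 0.00336). Each of these had a lower adjusted p with Combo than PTPN6, so the genes that fell were not only phosphatases.

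Of 11 genes listed as outputs of dectin-1 and Mincle signalling, 2 fell with iDOT1L, 2 fell with iEZH2, and 1 rose and 2 fell with Combo. Here and for the transcription factors below, 3.08% of all genes rose and 3.17% fell with iDOT1L. The shares were 1.3% and 2.05% with iEZH2, and 7.22% and 8.8% with Combo. The cytokine gene TNF was 116 ± 29.5 normalised counts in DMSO and 38.4 ± 5.61, 44.0 ± 10.2 and 24.1 ± 7.24 with iDOT1L, iEZH2 and Combo (SD, n = 4). It fell by 1.55 on the log2 scale with iDOT1L (limma, adjusted p = 0.000623) and fell by 2.24 with Combo (adjusted p = 5.12e-06). With iEZH2 TNF fell by 1.37 (adjusted p = 0.00436). The neutrophil chemokine gene CXCL8 rose by 2.14 ± 0.50 with Combo (adjusted p = 0.00596). Among 15 myeloid transcription factors 3 rose with iDOT1L, namely CEBPD by 0.90 ± 0.10 (adjusted p = 1.51e-05), KLF4 by 0.78 ± 0.15 (adjusted p = 0.00236) and CEBPE by 2.69 ± 0.54 (adjusted p = 0.00423). The same 3 rose with Combo, where IRF8, STAT5A and STAT5B fell. With iEZH2 none of the 15 rose and 2 fell, IRF8 among them.

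Genes with a mean of at least 20 normalised counts were ranked by their likeness to CLEC12A over the 16 libraries (12297 ranked). The highest were IL7R (Pearson r 0.981), the interleukin-7 receptor gene, MGAM2 (0.962) and CCNA1 (0.956), a germ cell and haematopoietic cyclin. CLEC12B, with a mean of 14.96, was below that cut and not ranked, and its r with CLEC12A was 0.966. The ranked genes most like CLEC12B were CCNA1 (0.979), SERPINB10 (0.971) and ADAMTS2 (0.969). These values describe 16 libraries that fall into groups, share their treatments and are not independent points. IL7R was 157 ± 60.9 normalised counts in DMSO, 708 ± 28.7 with iDOT1L, 190 ± 79.9 with iEZH2 and 987 ± 116 with Combo (SD, n = 4). CCNA1 was 907 ± 39.9 with iDOT1L and 1579 ± 147 with Combo, and at 373 ± 326 (SD, n = 4) its iEZH2 libraries spread widely, as those of CLEC12A did. SERPINB10 shares 20.7% of its 31-base words with other genes, so its level is uncertain.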

How the data were processed

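Paired-end reads of 150 bases from 16 libraries, 4 per group, were processed by the authors. The authors used kallisto, DESeq2 and hg38, per the submitters' processing notes, without versions or annotation. The authors' deposited table holds log2 values in the variance-stabilised form DESeq2 gives, scaled between libraries, with a lowest value of 6.28106 in all 16 libraries. Here the values were turned back into normalised counts by the inverse of that transformation. Depth was estimated from steps of single reads among low values. In each library 67.3% to 70.45% of low values lay within 0.1 of a whole step, so estimated reads are approximate. Correlations between libraries were 0.982 to 0.996. A sort named in the extraction protocol is at odds with the treatment text, which was followed.

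IDs were matched to GENCODE 29 (20784 of 22445). Since the values are not counts, limma 3.58.1 (trend, robust) was fitted in R 4.3.3 to log2(normalised count + 1) of genes above 1 in at least 4 libraries (22331 genes), with 4 group means, 12 residual degrees of freedom and Benjamini-Hochberg adjustment per comparison. The fit was tested on simulated data that changed only genes with higher DMSO means than CLEC12A and CLEC12B had. Recovery at their DMSO levels was not tested. For named genes, 31-base words shared with other transcripts were counted. Promoter windows came from RefSeq (GRCh38.p14).

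The 10 genes and the lists were chosen with earlier results of these data known. Named besides them are up to 4 called members of a list with the lowest adjusted p, called genes of the region, and the 3 genes most correlated with each called gene at a mean of at least 20. A gene that the rule took is not reported here. The look at iEZH2 replicate 4 was made after its CLEC12A value was seen. Alternatives were other pseudocounts, filters and scalings, the deposited values, a replicate block and leaving out each library.

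Whether replicate numbers pair the libraries depended on the scale and the genes used, and the labels do not say what a number stands for. On the fitted scale over all genes, residual correlations of same-numbered libraries were as low as 0.0176 (iDOT1L and DMSO), 0.0313 (iEZH2 and DMSO) and 0.0257 (iDOT1L and iEZH2), which misses the bar of 0.1 for every pair. On the same scale for the 12270 genes with a mean of at least 50 they were 0.109 to 0.5, 0.198 to 0.581 and 0.113 to 0.639, and on the deposited log2 values 0.138 to 0.458, 0.125 to 0.501 and 0.158 to 0.577, all above 0.1. No pair of groups with Combo passed in any of the 3 checks. The last 2 checks were added after the calls of the blocked fit had been seen, so the blocked values are given beside the results they change and decide none of them.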

Additional observations from a re-analysis of the deposited data

Results flagged for a closer look

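In 4 of the 36 groups of 4 libraries examined (9 genes, 4 groups), 1 library stood apart from the others by more than Dixon's 95% critical value for the gap over the range. Chance gives about 1 in 20. CLEC12B was 27.38 normalised counts in iDOT1L replicate 2, against 14.8 to 16.1 in the other iDOT1L libraries. CLEC12B was 11.92 in iEZH2 replicate 4, against 1.10 to 1.59 in the others, and the monocyte marker sum was highest in that library too. CLEC1A was 13.42 in iDOT1L replicate 2, against 5.54 to 6.48 in the others. OLR1 was 30.4 in Combo replicate 1, against 3.39 to 7.22 in the others. Causes were not tested.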

How the results depend on the processing

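The calls of CLEC12A and CLEC12B in iDOT1L and Combo against DMSO and in both against iEZH2 kept their direction and threshold under every alternative run, although on the deposited log2 values the iDOT1L differences were 1.15 and 0.61. Read depth limits CLEC12B, CLEC1A and CLEC1B, with an estimated 1.91, 12.5 and 11.4 reads in all DMSO libraries together. The calls of CLEC1B against DMSO and iEZH2 with iDOT1L were each lost without some libraries. For other genes 19 differences were run under the alternatives, and 14 of these stayed past the threshold under every one. The TNF difference with iEZH2 was not among the 19. Nor were the differences of PHC1, AC007068.1, NFKB1, SRC, PLCG2, NFKB2, IRF8, STAT5A, STAT5B and the monocyte markers. The Combo differences of CEBPD, KLF4 and CEBPE were not run either. RIMKLB with iEZH2 missed the threshold on the deposited log2 values (limma, adjusted p = 0.0603), and the other losses came only from leaving out a library.

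With the replicate block, genes called numbered 2729 for iDOT1L, 2180 for iEZH2 and 5499 for Combo against DMSO, 2240 for Combo against iDOT1L, 2136 for Combo against iEZH2 and 3185 for iDOT1L against iEZH2, and 0 for the interaction. Members called became 5 for Combo against DMSO and 1 for Combo against iDOT1L. In iDOT1L against DMSO and against iEZH2 the block added CLEC2D (adjusted p = 0.0278 and 0.0447). It changed no other call of the 9 genes. Same-numbered libraries correlated above 0.1 for the 3 pairs of groups without Combo on the deposited log2 values and, at a mean of at least 50, on the fitted scale, but not on the fitted scale over all genes. The first 2 checks were made after these counts had been seen.

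Leaving out 1 library gave 922 to 1284 genes called for iDOT1L, 408 to 1047 for iEZH2 and 2648 to 3586 for Combo against DMSO. It gave 199 to 567 for Combo against iDOT1L, 494 to 1356 for Combo against iEZH2 (1356 without iEZH2 replicate 4), 964 to 1804 for iDOT1L against iEZH2, and 0 to 1 for the interaction. The low counts came without iDOT1L replicate 3 (922), DMSO replicate 3 (408), iDOT1L replicate 1 (199), iEZH2 replicate 3 (494 and 964).

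Signs turned only for differences that were not called. Over single left-out libraries the iDOT1L difference ranged from -0.31 to 0.58 for CLEC4A, -0.47 to 0.0545 for CLEC4E, -0.27 to 0.0084 for CLEC2B and -0.61 to 0.12 for OLR1. The iEZH2 difference ranged from -0.0229 to 0.33 for CLEC7A, -0.43 to 0.48 for CLEC4A, -0.20 to 0.37 for CLEC2B, -0.19 to 0.25 for CLEC2D, -0.16 to 0.57 for OLR1 and -0.60 to 0.19 for CLEC1B. The Combo difference of OLR1 ranged from -0.51 to 0.45 and the CLEC12B interaction from -0.67 to 0.25. The interaction was 0.0898 for CLEC12A on the deposited log2 values, and for CLEC12B 0.0801 there and 0.29 with a pseudocount of 5. The cause was not tested.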
